A study of Mus musculus with 4 samples.

Results

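The genes described here encode the growth factors Pdgfa, Pdgfb and Kitl (Kit ligand, or stem cell factor) and the receptors Pdgfra, Pdgfrb and Kit. All probe sets that the platform annotation gives to 1 of these 6 symbols were taken, which are 14 of the 22626 probe sets on the array other than controls. They were compared between the atrioventricular (AV) junction and the ventricular region of the wild-type C57BL/6 mouse heart at embryonic days 10.5 to 11.0. Neither region carried a transgene, deletion or treatment per the labels. Each region was dissected from about 80 hearts and its RNA (230 ng from the AV junction, 250 ng from the ventricular region) was amplified and read on 2 Affymetrix MOE430A arrays, 1a and 1b. The arrays of a region share a replicate number, so they are taken as readings of 1 pool. The p-values therefore measure the spread between arrays and not between hearts, and with 2 arrays a region the smallest p that an exact permutation test (two-sided) allows is 0.333.

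Platelet-derived growth factors (PDGF) are secreted dimers that bind and pair receptor tyrosine kinases. Pdgfa acts mainly through Pdgfra, a receptor of mesenchymal cells, whereas Pdgfb also binds Pdgfrb, a receptor of pericytes and smooth muscle. Kitl, made as a membrane-bound or released protein, binds Kit, a receptor of the same structural class that is known from blood progenitors, mast cells, germ cells and melanoblasts. In the heart PDGF receptors are known from cushion mesenchyme and epicardium-derived cells.

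The ligand gene Kitl and the receptor gene Pdgfra were much higher in the AV junction, each on 1 probe set. Kitl on probe set 1415855_at was 7.18-fold higher and Pdgfra on 1421917_at 9.36-fold higher. Pdgfrb read higher by less, on a dim probe set, by at least 1.87-fold against the ventricular background level. It passed narrowly (log2 fold 0.93, 95% interval 0.37 to 1.49, adjusted p = 0.043, limma). Pdgfa and Pdgfb did not pass the test, nor did Kit, which read lower on both AV arrays than on the ventricular arrays. In such bulk tissue, fewer cells of a type and less RNA per cell cannot be told apart. Intensities were scaled to a common trimmed mean of 500 on every array. A log2 fold is the AV junction's value minus the ventricular region's, fitted with limma on log2 of the scaled intensity plus 50, and a probe set passed where its p, adjusted by the Benjamini-Hochberg method, was at most 0.05 over all 13403 probe sets bright enough to be tested. Of the 14 probe sets 9 were tested, and of these 3 were higher, 0 lower and 6 did not pass (3 higher and 1 lower at an unadjusted p under 0.05, limma). Over all probe sets tested, 7.24% were higher and 6.58% lower. Arrays of the regions did not overlap for 6 of the 9, against 61.2% of all probe sets tested, a share near the background. The other 5 probe sets had a mean scaled intensity under 100 and were not tested. The floor fell between Pdgfb 1450414_at, at a mean of 108, and Kitl 1415854_at, at 57.6.

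**Figure D1:**
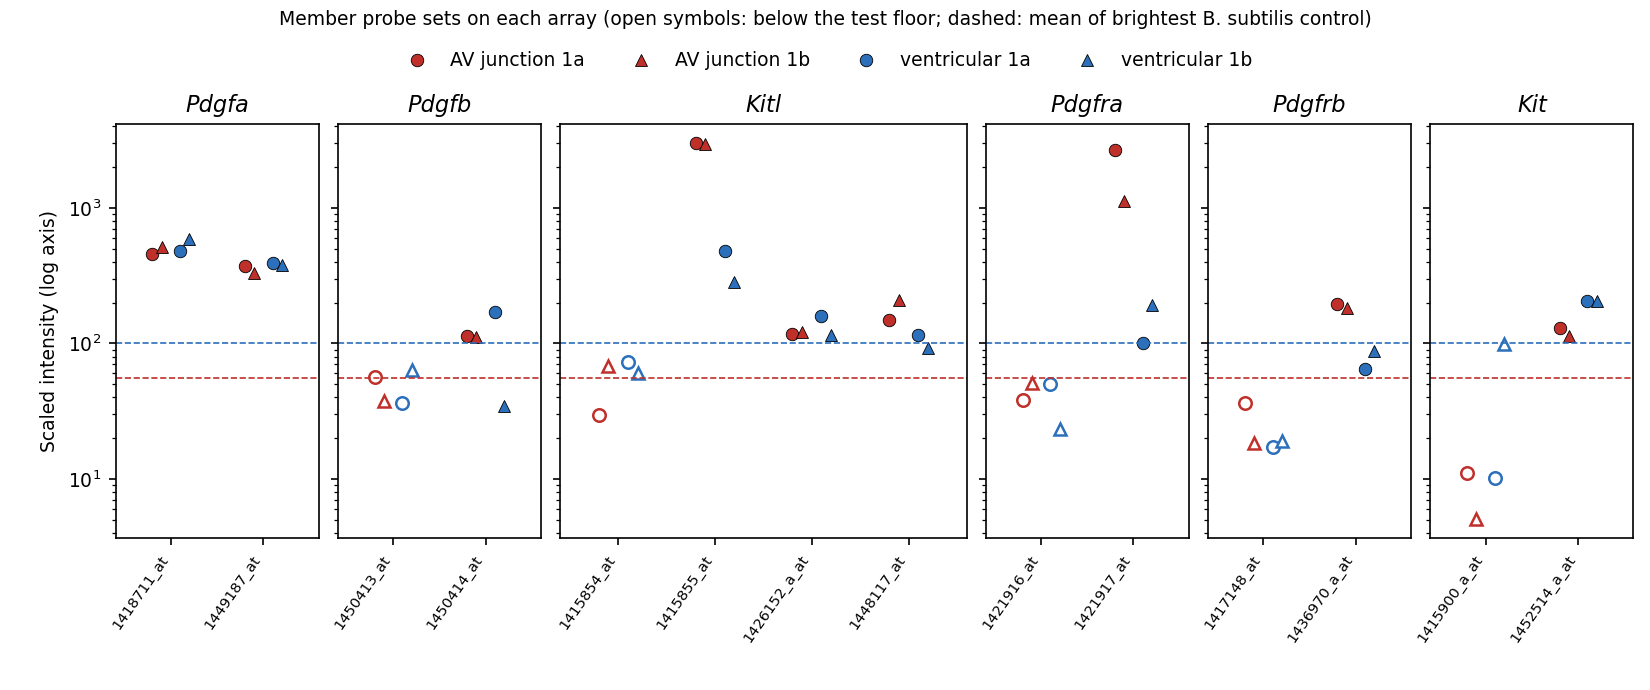
Scaled intensity (log axis) of the 14 probe sets on the 4 arrays, by gene. Circles are arrays 1a and triangles arrays 1b, in red for the AV junction and blue for the ventricular region. Open symbols mark the 5 probe sets under the test floor. Dashed lines give, for each region, the mean of the brightest Bacillus subtilis control on its arrays. Kitl 1415855_at and Pdgfra 1421917_at are the probe sets on which the regions stand far apart, while the other probe sets of both genes are dim.

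The arrays of a region were alike, with Pearson's r across the tested probe sets of 0.980 (AV) and 0.979 (ventricular), against 0.947 to 0.950 between regions. Those correlations run over probe sets, not over replicates. The brightest control for Bacillus subtilis transcripts, foreign to mouse RNA, served as a background and read 52.6 to 58.6 on the AV arrays and 97.9 to 104 on the ventricular arrays. A level at or under it is called not above background, and a fold against a region with no array above it is given as "at least". The 3'/5' intensity ratio of actin was 16.6 to 23.4, so the signal lay mostly toward the 3' ends. All 4 arrays came from 1 chip lot and were hybridised and scanned on 1 day. Among markers of the labelled tissues, the AV junction was higher in 8 of 9 tested genes of cushion mesenchyme and lower in 7 of 8 of ventricular muscle. Of all genes tested 8.47% were higher and 6.54% lower, each gene by its brightest probe set. The marker lists were chosen with earlier results of these data known, so these counts are no independent check of the dissection.

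Kitl, the ligand of Kit, was read by probe set 1415855_at at 3009 and 2958 on AV arrays 1a and 1b, against 480 and 286 on ventricular arrays 1a and 1b. Both AV arrays were far above both ventricular arrays, and the AV arrays lay close together. The log2 fold was 2.84 (95% interval 2.37 to 3.32, SE 0.20, n = 2 arrays a region, adjusted p = 0.000397, limma), which ranks 15 from the highest of 13403. It ran from 2.47 to 3.17 over 13 alternative settings and passed in all of them.

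The other Kitl probe sets did not repeat this size. Probe set 1448117_at read 148 and 208 on the AV arrays against 115 and 93.2 on the ventricular ones, higher in the AV junction without overlap. Its log2 fold of 0.56 (95% interval −0.02 to 1.13, adjusted p = 0.172, limma) did not pass, and 1 of its 2 ventricular arrays was above background. Probe set 1426152_a_at read 118 and 121 against 158 and 116, so that the regions overlapped (log2 fold −0.13, 95% interval −0.69 to 0.43, with a sign that turned to 0.03 under quantile normalisation and under median scaling). Probe set 1415854_at, under the test floor, read 29.8 and 68.0 against 72.4 and 60.0, where only 1 of its 4 readings was above background. Probe sets 1415854_at, 1415855_at and 1448117_at are listed under the same sequence record in the platform annotation. With the mean of the 3 tested Kitl probe sets in place of the brightest, an alternative chosen after the data were seen, the log2 fold was 1.09 (adjusted p = 0.00755, limma).

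Pdgfa, the PDGF ligand that acts mainly through Pdgfra, was read well above background in both regions by both of its probe sets. Probe set 1418711_at gave 460 and 513 on the AV arrays against 480 and 589 on the ventricular ones, with overlap. Probe set 1449187_at gave 374 and 330 against 392 and 379, slightly lower in the AV junction on both arrays. Both log2 folds were −0.12 (SE 0.15 each, 95% intervals −0.48 to 0.24 and −0.47 to 0.24, adjusted p = 0.628 and 0.633, limma), and both became 0.04 under median scaling. A change in Pdgfa larger than these intervals was therefore not seen on either probe set, while smaller ones cannot be told from 0.

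Pdgfb, the ligand that endothelial cells release to recruit pericytes, was near background. Probe set 1450414_at read 113 and 112 on the AV arrays against 171 and 34.5 on the ventricular ones. The ventricular readings lay on either side of the AV ones, and only 1 of them was above background. The log2 fold of 0.25 had a wide interval (−0.78 to 1.27, adjusted p = 0.731, limma) and turned to −0.45 without ventricular array 1b. Probe set 1450413_at was not above background on any array, at 36.5 to 64.1.

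Pdgfra, the receptor of mesenchymal cells, read 2667 and 1128 on AV arrays 1a and 1b with probe set 1421917_at. On ventricular arrays 1a and 1b it read 101 and 192, just above the control of 97.9 on array 1a. The regions did not overlap, although the arrays within each region differed more than for Kitl. The log2 fold was 3.23 (95% interval 2.34 to 4.12, SE 0.38, adjusted p = 0.00269, limma), which ranks 11 from the highest. Without AV array 1a it was 2.62 (adjusted p = 0.00562), and without AV array 1b 3.83 (adjusted p = 0.00131). The second probe set, 1421916_at, listed under the same sequence record, was not above background on any array, at 23.5 to 51.3, and says nothing of a difference.

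Pdgfrb, the receptor of pericytes and smooth muscle, read 195 and 183 on the AV arrays with probe set 1436970_a_at and 64.7 and 87.2 on the ventricular arrays. Neither ventricular array was above background, and the AV arrays lay above both. The log2 fold of 0.93 (SE 0.24, 95% interval 0.37 to 1.49, adjusted p = 0.043, limma) passed narrowly. It missed when any single array was left out: leaving out AV array 1a gave 0.90, AV array 1b 0.96, ventricular array 1a 0.80 and ventricular array 1b 1.06, with adjusted p from 0.0783 to 0.154. It also missed with a pseudocount of 1 (log2 fold 1.32, adjusted p = 0.0521) and with no filter on dim probe sets (adjusted p = 0.11). Its second probe set, 1417148_at, was not above background on any array, at 17.1 to 36.2.

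Kit, the receptor of Kitl, went the other way from its ligand without passing the test. Probe set 1452514_a_at read 129 and 114 on the AV arrays against 207 and 206 on the ventricular ones, all above background and without overlap. The log2 fold was −0.58 (SE 0.21, 95% interval −1.07 to −0.10, unadjusted p = 0.0245, adjusted p = 0.104, limma). Over 11 alternatives it lay between −0.76 and −0.34, and the adjusted p between 0.0677 and 0.258. The second probe set, 1415900_a_at, read 11.1, 5.03 and 10.1 on 3 arrays and 99.6 on ventricular array 1b, none of them above background. A loss of Kit transcript in the AV junction was thus not shown at this number of arrays, and its absence was not shown either.

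**Figure D2:**
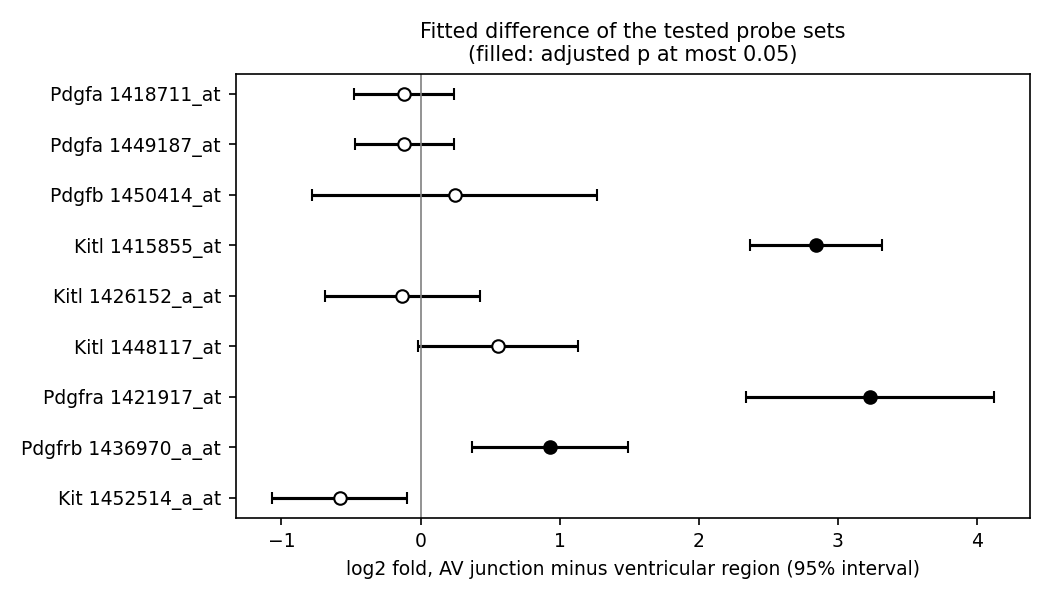
Log2 fold (AV junction minus ventricular region) of the 9 tested probe sets with its 95% interval from the fit, not adjusted for multiple testing. Filled points passed at an adjusted p of at most 0.05. Kitl 1415855_at at 2.84 and Pdgfra 1421917_at at 3.23 lie far to the right of the others, and Kit at −0.58 is the member farthest to the left.

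**Figure D3:**
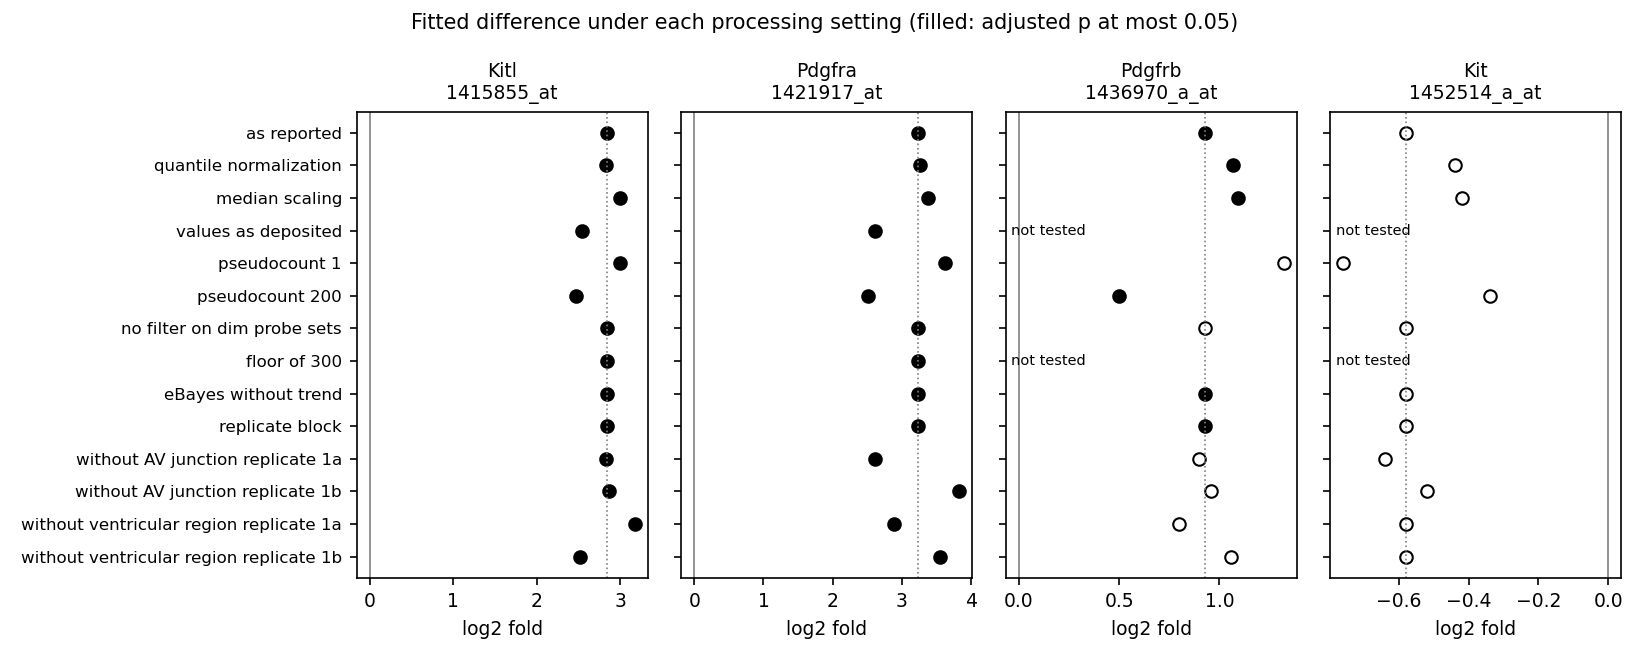
Log2 fold of 4 probe sets under each processing setting, with filled points for an adjusted p of at most 0.05 and a different horizontal range in each panel. The dotted line is the value as reported and the solid line 0. Kitl and Pdgfra are filled in every setting, Pdgfrb in the reported setting and 5 of 11 alternatives, and Kit in none.

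The 2 genes that differed most, Kitl and Pdgfra, and Kit, which lies next to Pdgfra on chromosome 5, are shown with the 250 bases before their annotated starts, so that the sequence can be set beside the values. The sequences are RefSeq's for GRCm38.p6, on the plus strand, at chr10:100015571-100015820 for Kitl, chr5:75152001-75152250 for Pdgfra and chr5:75574737-75574986 for Kit (the first of 2 starts listed). Promoter windows were found for 4 of the 6 genes. Capitals mark every match, on either strand, to 5 motifs. These were GGGCGG, known as the GC box, TATAAA, the TATA box, CANNTG, the E-box that factors such as Twist1 bind, GGTGTGA, a site of T-box factors, and the CCAAT box.
Kitl: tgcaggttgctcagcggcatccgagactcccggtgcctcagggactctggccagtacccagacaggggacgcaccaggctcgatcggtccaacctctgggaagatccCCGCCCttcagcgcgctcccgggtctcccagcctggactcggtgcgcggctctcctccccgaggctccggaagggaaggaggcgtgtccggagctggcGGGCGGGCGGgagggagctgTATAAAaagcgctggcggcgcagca
Pdgfra: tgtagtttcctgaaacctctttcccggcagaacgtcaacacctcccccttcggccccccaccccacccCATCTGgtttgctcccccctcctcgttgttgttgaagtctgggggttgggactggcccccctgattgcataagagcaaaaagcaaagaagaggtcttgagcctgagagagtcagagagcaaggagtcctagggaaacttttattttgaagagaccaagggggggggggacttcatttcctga
Kit: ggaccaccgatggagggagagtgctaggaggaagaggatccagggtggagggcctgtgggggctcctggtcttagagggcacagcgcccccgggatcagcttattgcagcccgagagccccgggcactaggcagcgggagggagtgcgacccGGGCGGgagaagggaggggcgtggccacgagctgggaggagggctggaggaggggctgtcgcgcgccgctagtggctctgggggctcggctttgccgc
The windows differ in base content. That of Kitl has 69.2% G or C and that of Kit 70.8%, whereas that of Pdgfra has 54.4%, near the median of 52.4% over 32851 RefSeq windows. Kitl holds 3 GC box matches, 2 of which overlap in 1 run, and 1 TATAAA. Kit holds 1 GC box match, and Pdgfra holds 1 CANNTG. Of all windows 32.7% hold GGGCGG, 12.4% TATAAA, 66.2% CANNTG, 33.8% the CCAAT box and 3.33% GGTGTGA. A match describes letters only.

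Marker genes of several cell types moved with region on the same arrays, where 8.47% of all genes tested were higher and 6.54% lower. Beside Pdgfra and Kitl, the summed level of 9 cushion mesenchyme markers was 13455 to 14256 on the AV arrays and 4179 to 4220 on the ventricular ones, with Twist1 and Prrx1 at or under background on both ventricular arrays. That of 7 hepatic markers was 6822 to 7225 against 509 to 542, with 3 of 4 tested genes higher and 0 lower (0 lower also at an unadjusted p under 0.05, limma). Afp, the fetal serum protein, read 4665 to 5214 against 17.1 to 18.8. Beside Pdgfrb, 9 markers of mural cells and smooth muscle summed to 15262 to 16350 against 17941 to 18854. Most of this sum was 1 gene, Acta2, at 13350 and 14418 against 15449 and 16261. Of 7 tested 0 were higher (1 at an unadjusted p under 0.05, limma) and 2 lower. Of the defining markers, Cspg4 was lower (log2 fold −0.72, adjusted p = 0.0478, limma), with −0.46 on its second probe set. Rgs5 gave −0.20 without passing, with 0.45 on another probe set, and Myh11 was not above background on any array. Beside Kit, 9 markers of blood progenitors and mast cells summed to 2088 to 2364 against 2322 to 2469, and of 6 tested 0 passed (0 higher and 1 lower at an unadjusted p under 0.05, limma). Of the defining genes, the mast cell protease gene Cpa3 read 102 and 161 against 210 and 256 and did not pass. Runx1, a blood progenitor factor, read 118 and 132 against 32.2 and 165, with overlap, and did not pass. Ptprc, the phosphatase CD45 of blood cells, read 157 and 133 against 97.9 and 9.06, was above background on neither ventricular array and was under the test floor. Erythroid markers (8 genes) summed to 40135 to 41335 against 73164 to 80298, with 5 of 8 lower and 0 higher (0 higher also unadjusted, limma). The part of these cell types in the differences of Pdgfra, Kitl, Pdgfrb and Kit was not tested.

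Of 6 epicardial genes 0 were higher and 1 lower (0 and 2 at an unadjusted p under 0.05, limma), with Wt1, Tbx18 and Tcf21 at log2 folds of 0.13, 0.10 and 0.33. Of 7 endocardial and endothelial genes 2 were higher and 0 lower (4 and 1 at an unadjusted p under 0.05, limma), where 8.47% and 6.54% of all genes were. Of the defining ones, the receptor gene Tek was higher (log2 fold 0.98). Cdh5 did not pass (0.22, adjusted p = 0.431, limma), and Pecam1 was not above background on any array. Among neural crest and melanoblast genes, which include other cells known for Kit, 0 of 5 passed (0 higher and 1 lower unadjusted, limma), and Sox10 read 184 and 200 against 189 and 189. Of 4 megakaryocyte genes 0 passed (0 and 1 unadjusted, limma). Of 3 macrophage genes 1 was higher, the receptor gene Csf1r, and 1 lower, the lysozyme gene Lyz2 (146 and 119 against 391 and 451, log2 fold −1.37, adjusted p = 0.00482, limma).

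The other components of these pathways, taken from a list of 67 genes, differed in both directions. Of these 56 had a probe set with 1 symbol and 43 were tested, each by its brightest probe set. Other probe sets are not in the counts and can differ, also for genes that did not pass. The brightest ones of Spry2, Pik3ca and Csf1 gave log2 folds of −0.0, −0.0 and −0.35, and another of each gave −0.81, 0.93 and −0.90. Higher genes numbered 9 and lower genes 3, while 31 did not pass, and the median log2 fold was 0.15 against −0.06 over all 8410 genes tested. Of all those genes 8.47% were higher and 6.54% lower. The higher count was 2 or 3 without any 1 of the 4 arrays (3 without AV array 1b and 2 without each of AV array 1a, ventricular array 1a and ventricular array 1b). Of the 12 that passed, 4 (Pdgfc, Csf1r, Egr1 and Fos) also passed under every alternative run.

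Pdgfc, a PDGF ligand that also acts through Pdgfra, was higher on both of its probe sets. The brighter one read 812 and 793 on the AV arrays against 388 and 334 on the ventricular ones, a 2.08-fold difference (log2 fold 1.05, SE 0.14, adjusted p = 0.00414, limma). The second, 1449351_s_at, read 1087 and 841 against 236 and 310 (log2 fold 1.65, adjusted p = 0.00203). Pdgfd, a ligand of Pdgfrb, was not above background on any array, at 27.8 to 44.9.

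Among genes for proteins that process the ligands, 2 of 3 tested were higher, where 8.47% of all genes were. Mmp9, Plau and St14 of this list were under the test floor. Their means were 52.3, 21.8 and 28.7 in the AV junction against 111, 78.6 and 50.6 in the ventricular region. Plau and St14 were not above background on any array. Plat, the tissue plasminogen activator that cleaves the PDGF-C protein, read 390 and 379 against 245 and 214 (log2 fold 0.64, adjusted p = 0.0426, limma). Adam17, a membrane protease that can release Kitl from the cell surface, read 438 and 364 against 195 and 179 (log2 fold 0.92, adjusted p = 0.016). A second probe set of Adam17 gave 0.12. Over the alternative settings, Plat passed in 6 of 12 and Adam17 in 7 of 11. Plat missed when any single array was left out (adjusted p from 0.098 to 0.148), and Adam17 when AV array 1a or either ventricular array was left out (up to 0.0838).

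Of the related receptors and ligands, Csf1r, the receptor of macrophage growth factor and a relative of Kit and the PDGF receptors, rose by a log2 fold of 1.11 (2287 and 2363 against 971 and 1137, adjusted p = 0.00162, limma). Its other probe sets gave 0.01 and −0.45 and did not pass. Csf1r is also a defining macrophage marker in these lists. Of the other defining ones, Cd68 read 66.3 and 112 against 84.2 and 97.3, with overlap, and Adgre1 451 and 405 against 287 and 336 without passing (log2 fold 0.40, adjusted p = 0.134, limma). Kdr, the VEGF receptor encoded beside Kit, gave 0.16 and did not pass.

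Adaptors and effectors shared by these receptors differed both ways. Of 22 tested, 5 were higher and 1 lower (6 and 3 at an unadjusted p under 0.05, limma), where 8.47% of all genes were higher and 6.54% lower. Fyn, a Src family kinase (log2 fold 0.71), Sos2, an exchange factor for Ras (0.68), Rasa1, which turns Ras off (0.54), Ptpn11, the phosphatase Shp2 (0.46), and the adaptor Crk (0.41) were higher. Second probe sets of Fyn and Rasa1 gave 0.47 and 0.17, and 3 of Crk gave −0.51, −0.48 and −0.37, none of which passed. Further probe sets of Rasa1, Ptpn11 and Crk were under the test floor. Rasa1 1426478_at read lower in the AV junction without overlap (51.6 and 61.3 against 100 and 89.5), with 1 array a region above background. On Ptpn11 1421196_at (37.9 and 91.5 against 60.7 and 40.9) and 1427699_a_at (65.0 and 104 against 91.9 and 68.4) the regions overlapped. Crk 1416201_at was not above background on any array. Gab2, a docking protein, was lower (log2 fold −0.79, 230 and 173 against 380 and 382). The kinase genes Src (log2 fold −0.97, adjusted p = 0.104) and Braf (−0.62, adjusted p = 0.131, limma) did not pass. Fyn, Sos2, Rasa1, Ptpn11 and Crk each missed when any single array was left out, with adjusted p of up to 0.123, 0.0863, 0.11, 0.103 and 0.149. Gab2 passed in 5 of 11 alternatives and Crk in 6 of 13. Gab2 missed when AV array 1b or either ventricular array was left out. It also missed with median scaling (adjusted p = 0.0602), no filter on dim probe sets (0.0828) and eBayes without trend (0.0584, all limma). Of 8 negative regulators 0 passed (1 higher and 1 lower at an unadjusted p under 0.05, limma).

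Of 5 nuclear targets and factors 2 were lower and 0 higher (3 lower and 0 higher at an unadjusted p under 0.05, limma). Of all genes tested 6.54% were lower and 8.47% higher. Both lower nuclear genes are immediate early genes, which receptor kinases can switch on. Egr1 read 976 and 929 against 2574 and 2467 (log2 fold −1.36, SE 0.10, adjusted p = 5e-04, limma), and Fos 365 and 344 against 729 and 866 (log2 fold −1.06, SE 0.14, adjusted p = 0.00476). Myc (log2 fold 0.55), Srf (−0.30) and Mitf (−0.02), a melanocyte and mast cell factor downstream of Kit, did not pass. Many other signals act on Egr1 and Fos, and their relation to the receptors was not tested.

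**Figure D4:**
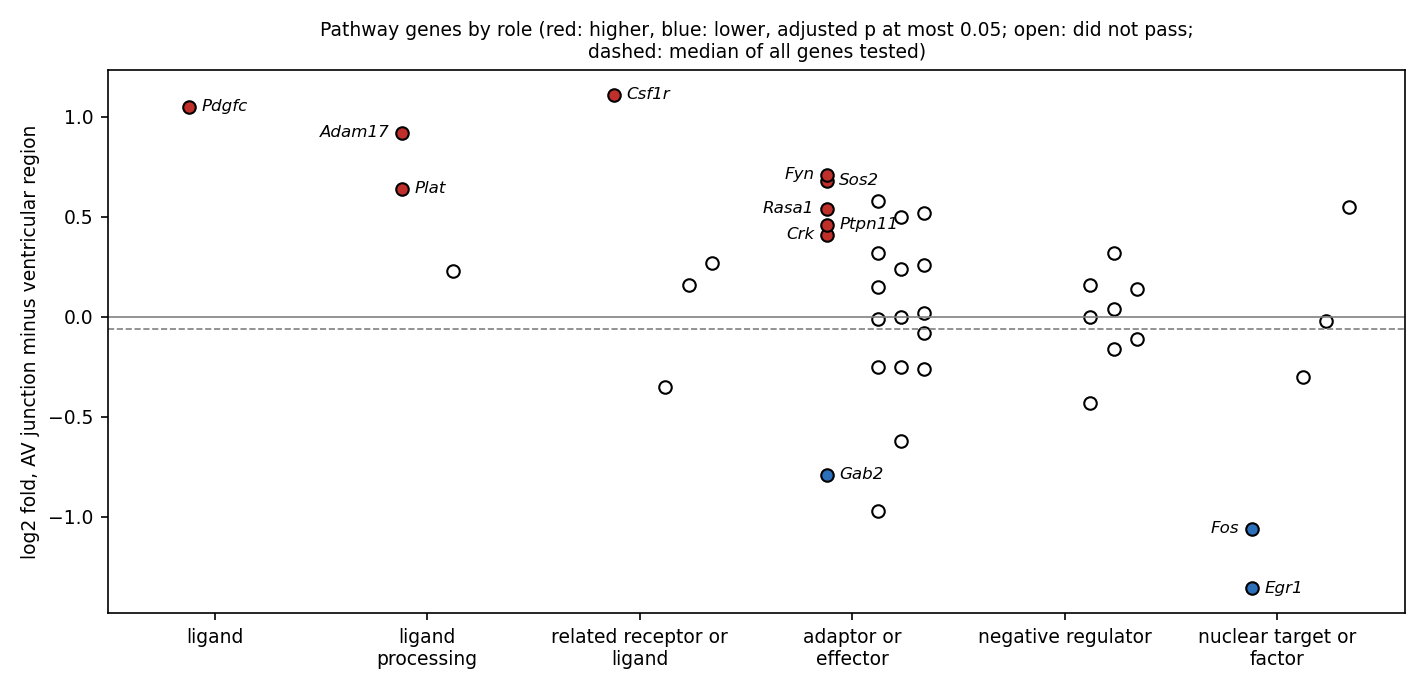
Log2 fold (AV junction minus ventricular region) of the 43 tested pathway genes, grouped by role, each point 1 gene by its brightest probe set. Red points were higher and blue points lower at an adjusted p of at most 0.05, open points did not pass, and points are spread sideways for legibility. The dashed line is the median of all genes tested, −0.06. The 9 higher genes lie among ligands, ligand processing, receptors and adaptors, and the 3 lower ones are Gab2, Fos and Egr1.

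The genes whose 4 readings most resembled those of Kitl, Pdgfra and Pdgfrb were found by the root mean square difference of their centred log2 values over the 4 arrays, among 8409 other genes. With 2 regions this likeness mostly reflects a log2 fold of like size. For Kitl they were the nuclear receptor gene Nr2f1 (difference 0.19), the homeobox gene Prrx1 (0.201) and the potassium channel gene Kcna5 (0.22). For Pdgfra they were the transcription factor gene Twist1 (0.365), Shisa2 (0.384) and the caveolin gene Cav1 (0.431), larger differences than for Kitl. The arrays within a region also lay further apart for Pdgfra (SE 0.38 against 0.20 for Kitl), and that spread enters the difference. For the smaller difference of Pdgfrb they were Drg1, Ndfip1 and Mical1 (0.046, 0.046 and 0.054).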

How the data were processed

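RNA of the AV junction and the ventricular region was read on 2 MOE430A arrays each. The deposited values are 1 linear intensity per probe set and array, which the authors computed in MAS5, per the submitters' processing notes. Version and detection calls are not given in the sources used here. The run records of the arrays hold settings and no measurement, and were read for batches only.

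The 64 control probe sets were left out and every array brought to a common 2% trimmed mean of 500. Of 22626 probe sets 20380 had 1 symbol, and the Entrez ids of 20351 were found in a RefSeq gene table (GRCm38.p6, used for names and gene order). Probe sets with a mean of at least 100 (13403) were fitted as log2(intensity + 50) with limma 3.58.1 under R 4.3.3 (lmFit, then eBayes with trend). Region was the sole term, and the total degrees of freedom, including the prior borrowed across probe sets, were 7.43. Tested on simulated data of these probe sets, with 200 changed in each of 20 draws, the fit recovered 3.58%, 44% and 93.6% of log2 folds of 0.5, 1 and 2, with 4.29% of calls false. In the simulation fewer probe sets were changed than the 13.8% called in the data, and noise was drawn for each array on its own. Its shares may therefore not hold for these data, and they do not cover the spread between pools. The number of arrays limits the precision.

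The genes, the lists and the alternatives were chosen with earlier results of these data known. Named genes are those of all member probe sets, Pdgfc, Pdgfd, the 8 largest changes of the pathway list that passed and the 3 genes most like each member that passed, and marker genes come from the 3 defining genes of each list. Plat, Mmp9, Plau, St14, Rasa1, Ptpn11, Crk, Src, Braf, Kdr, Lyz2, Acta2, Myc, Srf and Mitf were named after their values were seen. The same holds for Krt19, Upk3b, Aldh1a2, Spry2, Pik3ca and Csf1. Tables and figures were made in Python 3.11.15 (matplotlib 3.10.9).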

Additional observations from a re-analysis of the deposited data

How the results depend on the processing

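Kitl 1415855_at and Pdgfra 1421917_at kept their direction and passed under all 13 alternatives. The member count of 3 higher became 2 without any 1 array, with a pseudocount of 1, without the filter, with a floor of 300 and with the values as deposited, and 0 lower held in all of these. In the last 2 settings Pdgfrb, Pdgfb, Kit and the dimmer Kitl probe sets were too dim to be tested. Higher pathway genes (9) numbered 5 without the filter, 3 with eBayes without trend and 2 to 3 with 1 array left out. Where 1 array is left, it is assumed to vary like the others.

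Over all probe sets, 970 were higher and 882 lower. Median scaling gave 1714 and 459 (78.9% of calls higher against 52.4%) and moved the median log2 fold from −0.07 to 0.09. No filter gave 580 and 431, eBayes without trend 326 and 343, and 1 array left out 402 to 534 and 254 to 522. The sign of Pdgfa turned to 0.04 on 1418711_at and 0.04 on 1449187_at with median scaling, and on 1418711_at it ran from −0.25 to 0.02 with 1 array left out (0.02 without ventricular array 1b). Kitl 1426152_a_at turned to 0.03 with quantile normalisation, with median scaling and without ventricular array 1a (−0.29 to 0.03 with 1 array left out). Pdgfb turned to −0.45 without ventricular array 1b (up to 0.26 without another). Median scaling shifts all log2 values of an array alike and so moves every log2 fold alike. That of Kitl 1415855_at went from 2.84 to 3.0 and that of Kit from −0.58 to −0.42. None of the probe sets whose sign turned passed, and the cause of the other turns was not tested.

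The letters 1a and 1b were also fitted as a replicate block, which changed no call of a member and gave 1344 higher and 1375 lower probe sets. The 1a minus 1b differences of the regions correlated at 0.056 across probe sets. Whether arrays of the same letter shared any handling was not tested.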

Other observations

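Pdgfra and Kit are direct neighbours in RefSeq's order of protein-coding genes on chromosome 5, with 0 such genes between them. The 4 genes on each side were chosen after the values of Pdgfra and Kit were seen. Pdgfra ranks 11 from the highest of 13403 probe sets, so smaller log2 folds in its neighbours say nothing particular of this place. Of the 8 neighbours 7 were tested, of which 1 was higher and 0 lower by limma (adjusted p at most 0.05). Of all genes tested 8.47% were higher and 6.54% lower. The higher neighbour was Fip1l1, which encodes a factor of messenger RNA polyadenylation. Its AV arrays gave 2551 and 3331, its ventricular arrays 1367 and 1615 (log2 fold 0.95, adjusted p = 0.00853), and a second probe set gave 0.70 without passing (adjusted p = 0.0945). Lnx1 (log2 fold 0.35) and Chic2 (0.09), which lie between Fip1l1 and Pdgfra, did not pass, and Gsx2 was not above background on any array. On the far side of Kit, Kdr (0.16), Srd5a3 (−0.25), Tmem165 (0.19) and Clock (0.11) did not pass.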
